A study of Homo sapiens with 12 samples.

Results

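The proteasome subunit genes were followed here through the splicing of their RNA in MEC1 cells, a cell line from chronic lymphocytic leukemia, a cancer of B cells. A gene was a member when its symbol read PSM, then 1 letter from A to G, then a number. The splicing table held 47 such genes among 30275 gene names, with 1636 of its 721551 splicing events. Poly(A) RNA was compared between cells with wild-type SF3B1 (WT) and cells with the K700E change in SF3B1, each given 75 nM H3B-8800 or the solvent DMSO for 6 h. Each of the 4 groups had 3 samples. WT replicates 1 and 2 were the unedited MEC1 cultures a and b, and WT replicate 3 was an edited clone, 34b, that carried only the change c.2106G>A. K700E replicates 1 to 3 were the edited clones 41, 38 and 15b, which carried c.2098A>G and c.2106G>A. The same cultures and clones were sampled with DMSO and with drug. P-values therefore measure the spread between cultures and clones of 1 cell line and not between patients.

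The proteasome is the barrel-shaped protease that degrades proteins tagged with ubiquitin. Its 20S core is a stack of rings of alpha (PSMA) and beta (PSMB) subunits, with the protease sites on beta subunits. The 19S regulatory particle holds a ring of ATPases (PSMC) that unfold substrates and non-ATPase subunits (PSMD) that bind ubiquitin and remove it. PSME genes encode other activators, PSMF1 an inhibitor, and PSMG genes and some PSMD genes encode chaperones that assemble the particle. SF3B1 is the part of the U2 snRNP that helps recognise the branch point before an exon. H3B-8800 binds the SF3B complex and changes branch point use, and K700E is the most frequent SF3B1 change in leukemia, known for activating 3' splice sites upstream of the usual ones.

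All members but PSMA8 were measured in these libraries. Inclusion level is the percentage of transcripts that include an exon, retain an intron or use an alternative site, and differences between levels are given in percentage points. With at least 20 reads required in all 12 samples, 1450 member events were left, and 391 of them also had a mean level between 1% and 99% and the other properties needed for a test: 125 exons, 219 introns, and 19 alternative 3' and 28 alternative 5' splice sites. They lay in 46 genes. PSMA8, the alpha subunit of germ cells, had none. Many other rows sat at the end of the scale, with 196 of 370 well-read member exons above 99% on average and 174 of 412 introns below 1%. A smaller share of well-read exons could be tested in the members than in the whole table, 33.8% against 44.8%.

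The libraries held 45840233 to 56676172 reads across exon-exon junctions. The median number of reads behind a tested member event was 1204 to 1819 per library, against 171 to 303 for all tested events. The K700E-dependent 3' site of DPH5 was used at 0% to 1.28% in the 6 WT libraries and 59.6% to 76.0% in the 6 K700E libraries, as their labels say. All 7 B cell markers were read in these cells, and their summed level ran from 3512 to 6736 spliced reads per 1000000 (RPM). None of 5 T and NK cell markers and none of 4 myeloid markers reached a mean of 50 reads, and their sums stayed at or below 1.86 RPM in every library. Of 4 epithelial and fibroblast markers 2 reached it, with sums of 2.81 to 9.12 RPM.

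The exons below are shown as examples of strongly skipped exons, some that keep the reading frame when skipped and some that shift it. Each is read 5' to 3' on its own strand from GENCODE v29 transcripts (GRCh38), with the exon in capitals and 12 bases of the neighbouring exons in lower case on either side. The first 3 have a length divisible by 3, so that skipping removes codons and keeps the reading frame, and the last 3 do not. PSMD14, the subunit that cuts ubiquitin chains off substrates, has its exon 5 of 12 at chr2:161367784-161367903 (+), 120 nt that hold codons 41 to 80 of 310. Exon 11 of 14 of the 19S subunit gene PSMD11, chr17:32479851-32479886 (+), is 36 nt long and holds codons 347 to 358 of 422. Exon 11 of 13 of the 19S subunit gene PSMD13, chr11:251546-251626 (+), has 81 nt and codons 280 to 306 of 376. Exon 6 of 10 of the 19S chaperone gene PSMD5, chr9:120826765-120826907 (-), has 143 nt. Exon 3 of 9 of the alpha subunit gene PSMA4, chr15:78542177-78542219 (+), has 43 nt and begins just after the start codon. Exon 10 of 14 of the ATPase gene PSMC6, chr14:52718977-52719038 (+), has 62 nt.
PSMD14 exon 5: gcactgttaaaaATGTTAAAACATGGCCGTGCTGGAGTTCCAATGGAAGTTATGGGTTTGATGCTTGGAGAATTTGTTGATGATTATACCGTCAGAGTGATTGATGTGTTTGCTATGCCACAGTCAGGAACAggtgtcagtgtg
PSMD11 exon 11: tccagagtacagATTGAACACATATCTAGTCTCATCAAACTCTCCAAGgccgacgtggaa
PSMD13 exon 11: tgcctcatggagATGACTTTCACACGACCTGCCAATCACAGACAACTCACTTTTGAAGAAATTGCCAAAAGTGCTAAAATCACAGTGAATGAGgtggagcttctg
PSMD5 exon 6: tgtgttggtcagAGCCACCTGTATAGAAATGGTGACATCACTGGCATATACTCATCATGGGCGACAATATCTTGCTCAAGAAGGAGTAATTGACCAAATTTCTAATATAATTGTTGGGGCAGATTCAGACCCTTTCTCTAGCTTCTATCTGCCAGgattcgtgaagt
PSMA4 exon 3: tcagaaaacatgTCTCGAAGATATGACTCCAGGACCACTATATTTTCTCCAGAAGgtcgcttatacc
PSMC6 exon 10: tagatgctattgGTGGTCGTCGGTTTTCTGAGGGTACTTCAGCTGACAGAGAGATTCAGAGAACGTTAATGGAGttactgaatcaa

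For the 3 exons that shift the frame, the joined transcript is shown from 21 bases before the new junction to the first stop codon, which is in capitals. It was built from the same transcripts by leaving the exon out, and no such protein was measured.
PSMD5 without exon 6: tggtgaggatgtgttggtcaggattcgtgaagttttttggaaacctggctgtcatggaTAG
PSMA4 without exon 3: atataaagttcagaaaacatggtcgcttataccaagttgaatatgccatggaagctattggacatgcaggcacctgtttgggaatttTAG
PSMC6 without exon 10: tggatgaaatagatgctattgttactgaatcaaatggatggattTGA

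H3B-8800 lowered the inclusion of many proteasome exons and raised the retention of many proteasome introns, in cells of either genotype. An event was called at an adjusted p under 0.05 (limma on the log odds of inclusion, Benjamini-Hochberg over all tested events) with a difference of at least 10 points. In WT cells 48 of 125 member exons were called with less inclusion, where 40.3% of all tested exons were. For introns 44 of 219 were called with more retention in WT cells, against 31.9% of all tested introns. In K700E cells 48 of 125 member exons were called lower beside 38.5% of all exons, and 43 of 219 introns higher beside 31.6% of all introns. The members' exons thus stood near the background of the whole table, and their introns were called in a smaller share, 20.1% in WT and 19.6% in K700E cells.

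Direction was more uniform than size. Of the 125 exons, 120 had a lower mean with drug in WT cells and 121 in K700E cells, and 215 and 218 of the 219 introns had a higher one. The filter partly fixed these directions, because its mean level took in the drug samples. An exon near full inclusion with DMSO passed only if it was lower with drug. Likewise an intron hardly retained with DMSO passed only if it was higher with drug. The shares of either direction among all tested events were not counted. No exon rose by 10 points or more, but exons near full inclusion with DMSO had no room for such a rise. The median change of a member exon was -6.47 points in WT and -5.99 points in K700E cells, beside -6.88 and -6.47 points for all tested exons. For introns the medians were 4.15 and 4.41 points beside 4.92 and 5.02.

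The same exons were mostly called in both genotypes: 44 exons were called in both and 52 in at least 1, and 40 introns in both and 47 in at least 1. Among all tested events, 35.3% of exons and 28.5% of introns were called in both genotypes, beside 35.2% and 18.3% of the members' exons and introns. Called exons fell by 11.2 to 65.5 points in WT cells, with a median of -23.5, and by 10.1 to 60.4 points in K700E cells, with a median of -22.6. The called introns rose by 10.6 to 35.6 points in WT and 10.3 to 33.2 points in K700E cells. At the gene level, 23 of 46 members had a called event in WT cells and 22 in K700E cells, 19 in both and 20 in neither. Of all genes with a tested event, 75.5% had a call in WT and 75.2% in K700E cells, a larger share than among the members.

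**Figure D1:**
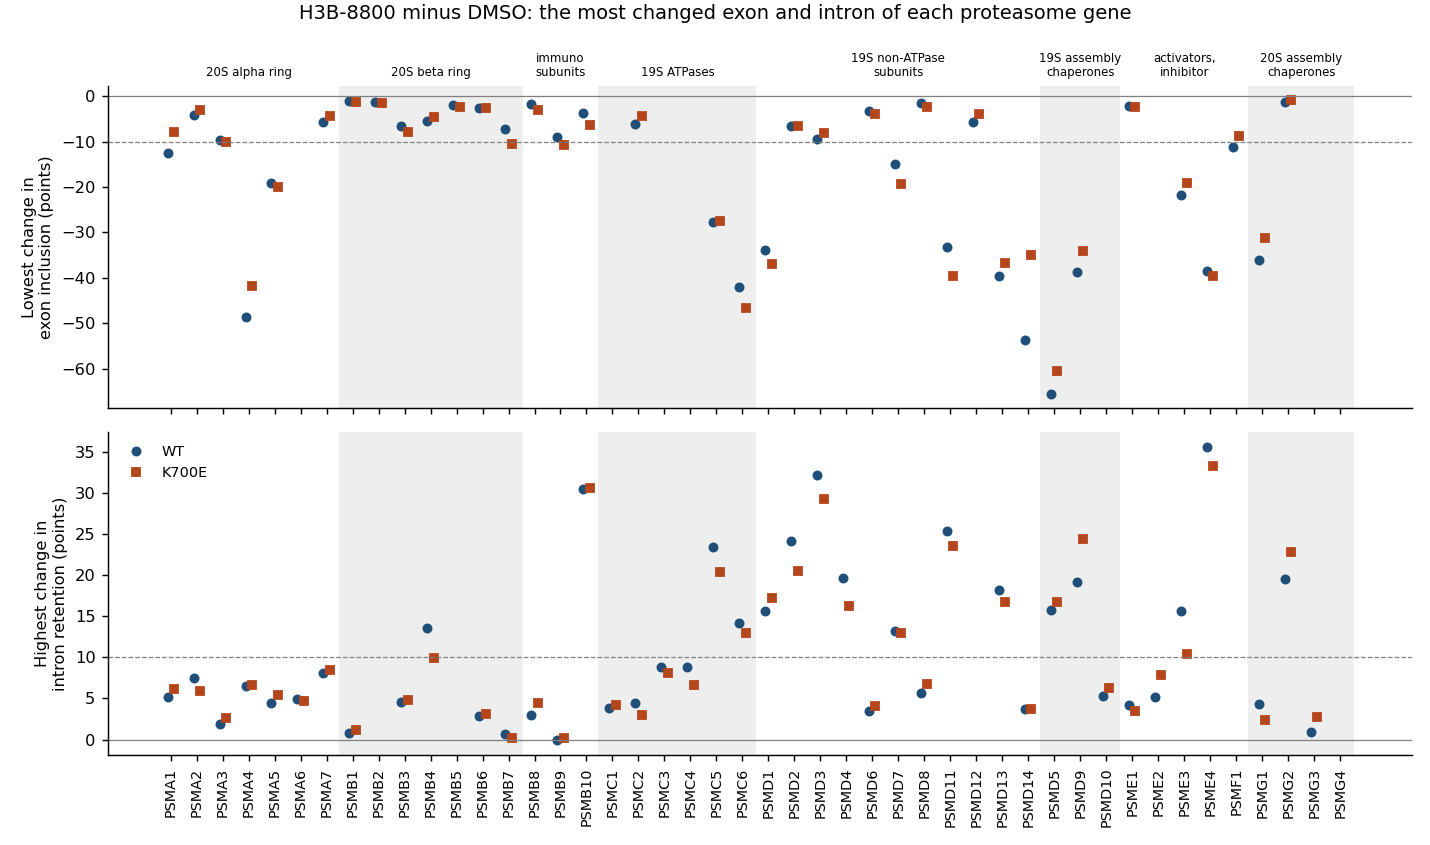
For each gene, grouped by its role in the particle, the most negative change of a tested exon and the most positive change of a tested intron with H3B-8800, in percentage points, in WT and K700E cells. Dashed lines mark 10 points; PSMD5 reaches -65.5 points in WT cells, while PSMB1 and PSMB2 stay at -1.03 and -1.21 points among exons; genes with no tested exon have no point there.

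The alpha ring, which gates the core, showed skipping in 3 of its 7 measured genes, with 7 of 21 tested exons called in WT and 6 in K700E cells. Of all tested exons 40.3% were called lower in WT and 38.5% in K700E cells. None of the 19 tested introns of the alpha ring was called in either genotype, beside 31.9% of all introns in WT and 31.6% in K700E cells. An unadjusted p under 0.05 (limma) was found for 17 in WT and 18 in K700E cells. Among all 45188 tested introns 36456 in WT and 36104 in K700E cells had such a p. PSMA4 exon 3, which follows the start codon, was included at 99.5%, 99.7% and 99.6% in WT DMSO samples and at 50.1%, 52.6% and 50.2% with drug. In K700E cells the same exon went from 99.6%, 99.9% and 99.8% to 54.5%, 61.3% and 58.5%. In treated WT cells transcripts with and without the exon were thus about equally frequent. The changes were -48.7 points (limma, adjusted p = 6.61e-08) and -41.7 points (limma, adjusted p = 5.09e-08). Exon 4 of PSMA4, 70 nt long, fell by 22.7 points in WT and by 16.4 points in K700E cells. In PSMA5, another alpha subunit, exon 4 of 9 (68 nt) fell by 19.2 and 19.9 points and exon 2 (67 nt) by 16.7 and 16.0 points. PSMA1 exon 2 was called in WT cells alone, with -12.5 points against -7.87 points in K700E cells, from 46 to 131 reads. PSMA3 exon 2 was called in K700E cells alone, but its changes of -9.55 and -10.1 points lie on either side of the size threshold. PSMA2, PSMA6 and PSMA7 had no call, and PSMA6 had no exon with enough reads in every sample.

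The beta ring, which holds the protease sites, was skipped little. None of 14 tested exons was called in WT cells and 1 was called in K700E cells, beside 40.3% and 38.5% of all tested exons. That exon was PSMB7 exon 6 (59 nt), which went from 99.8% ± 0.0839 (SD, n = 3) to 92.6% ± 0.405 in WT cells, and K700E cells went from 99.4% ± 0.163 to 88.8% ± 2.13. Its changes of -7.11 and -10.6 points again lie around the size threshold. Of the ring's 15 tested introns 3 were called in WT and 0 in K700E cells, beside 31.9% and 31.6% of all introns. All 3 lay in PSMB4, a structural beta subunit gene with 5 tested introns. Its 393-nt intron at chr1:151400846-151401238 rose from 6.40% ± 0.497 to 19.9% ± 3.43 in WT cells and from 5.10% ± 0.434 to 15.1% ± 2.41 in K700E cells, or by 13.5 and 9.96 points. In the other PSMB4 introns the rise was 12.9 and 10.9 points in WT cells and 9.35 and 9.34 points in K700E cells. PSMB1, PSMB2, PSMB3, PSMB5 and PSMB6 had no called event. PSMB5 encodes the chymotrypsin-like protease site, the one that bortezomib binds.

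The immunoproteasome subunits PSMB8, PSMB9 and PSMB10 replace the catalytic beta subunits in immune cells. PSMB10 retained 5 of its 7 tested introns more with drug in both genotypes. Of all tested introns 31.9% were called in WT and 31.6% in K700E cells. The 471-nt PSMB10 intron at chr16:67934949-67935419 was retained at 13.1%, 18.3% and 19.6% in WT DMSO samples and at 43.2%, 45.9% and 53.1% with drug. In K700E cells it went from 19.1%, 14.2% and 16.7% to 55.4%, 45.8% and 40.6%. Its rises were 30.4 points (limma, adjusted p = 5.4e-05) and 30.6 points (limma, adjusted p = 5.45e-05). Further PSMB10 introns, of 111, 265 and 103 nt, rose by 25.4, 24.9 and 21.4 points in WT cells. PSMB8 had no call. PSMB9 exon 3 (132 nt) was called in K700E cells alone, with -10.7 points against -9.03 points in WT cells.

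Among the 6 ATPase genes, only PSMC5 and PSMC6 had called events, in both genotypes. Of all genes with a tested event, 75.5% had a call in WT and 75.2% in K700E cells. Of all tested exons 40.3% and of all tested introns 31.9% were called in WT cells. PSMC5 had all 3 of its tested exons and 4 of its 9 tested introns called in WT cells. Its exon 7 of 12, 127 nt with codons 185 to 227 of 406, fell from 99.2% ± 0.0866 (SD, n = 3) to 71.6% ± 4.48 in WT cells, and K700E cells went from 99.1% ± 0.307 to 71.7% ± 7.0. PSMC5 introns of 183 and 80 nt rose by 23.5 and 19 points in WT cells and by 18.6 and 20.4 points in K700E cells. PSMC5 thus had both skipped exons and retained introns. PSMC6 exon 10 was included at 100%, 85.5% and 86.0% in WT DMSO samples and at 42.8%, 45.2% and 57.2% with drug. In K700E cells the values were 98.1%, 96.3% and 91.5% with DMSO and 57.0%, 36.8% and 52.0% with drug. This exon rested on 53 to 193 reads, which is shallow for this gene family, and its changes were -42.1 points (limma, adjusted p = 0.00334) and -46.7 points (limma, adjusted p = 0.00229). PSMC1, PSMC2, PSMC3 and PSMC4 had no called event, and PSMC1 had no exon with enough reads.

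The non-ATPase subunits of the 19S particle had calls in 8 of 11 genes in each genotype, near the 75.5% of all genes in WT and 75.2% in K700E cells. They held 15 of 34 tested exons called in WT and 14 in K700E cells, beside 40.3% and 38.5% of all exons. Of their 69 tested introns 18 and 20 were called, beside 31.9% and 31.6% of all introns. PSMD14 exon 5, in the deubiquitinase, was included at 99.7%, 99.6% and 99.7% in WT DMSO samples and at 44.7%, 47.3% and 46.3% with drug, from 3344 to 5029 reads. In K700E cells it was included at 100%, 99.9% and 100% with DMSO and at 61.7%, 63.1% and 70.0% with drug. The drug effect was -53.6 points in WT (limma, adjusted p = 2.23e-09) and -35.0 points in K700E cells (limma, adjusted p = 1.23e-09). Neither the drug samples nor the DMSO samples of the genotypes overlapped. A second PSMD14 exon, number 3 of 12 with 52 nt, fell by 19.3 and 15.1 points.

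PSMD11, whose product forms part of the 19S lid, carried one of the shortest called exons. Its 36-nt exon 11 was at 99.7%, 99.7% and 99.6% in WT DMSO samples and at 62.5%, 69.2% and 67.6% with drug. K700E cells went from 99.4%, 98.8% and 99.4% to 60.2%, 58.8% and 59.7%. The changes were -33.2 points (limma, adjusted p = 3.41e-09) and -39.6 points (limma, adjusted p = 7.07e-09). The last listed intron of PSMD11, 121 nt outside the coding part, rose by 25.3 and 23.6 points.

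PSMD13, another lid subunit, had 6 of its 8 tested exons called. Exon 11 was at 92.2%, 93.5% and 92.5% in WT DMSO samples and at 56.5%, 54.5% and 48.6% with drug. In K700E cells it was at 89.1%, 91.8% and 91.8% with DMSO and at 42.1%, 58.7% and 61.9% with drug. Its neighbours fell less: exon 10 by 20.8 points and exon 12 by 27.3 points in WT cells. Such neighbouring exons share junctions, so their values are not independent. PSMD1, the large scaffold subunit, had 4 of 9 tested exons called. The largest PSMD1 change was in exon 17 of 25 (115 nt), which fell by 33.8 points in WT and by 36.9 points in K700E cells, and exon 16 (65 nt) fell by 32.2 and 31.0 points.

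Called introns of the non-ATPase subunits included those of PSMD3, PSMD2 and PSMD4. In PSMD3, a lid subunit gene with 4 of 8 tested introns called, the 655-nt intron at chr17:39995528-39996182 was retained at 1.52%, 1.65% and 2.61% in WT DMSO samples and at 26.3%, 34.8% and 41.3% with drug. Its K700E values were 2.25%, 1.73% and 2.01% with DMSO and 37.7%, 27.7% and 28.3% with drug. The rises were 32.2 points (limma, adjusted p = 9.12e-08) and 29.2 points (limma, adjusted p = 1.61e-07). PSMD2, the second large scaffold subunit, had 4 of 17 introns called in WT cells and 6 in K700E cells, the largest being a 229-nt intron that rose by 24.1 and 20.4 points. A 394-nt intron of PSMD4, a ubiquitin receptor, rose by 19.6 and 16.2 points. In PSMD7, a lid subunit gene, 2 tested exons were called in WT cells and 1 in K700E cells, the latter being exon 6 of 7 (92 nt), which fell by 14.9 and 19.3 points. PSMD6, PSMD8 and PSMD12 had no called event.

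**Figure D2:**
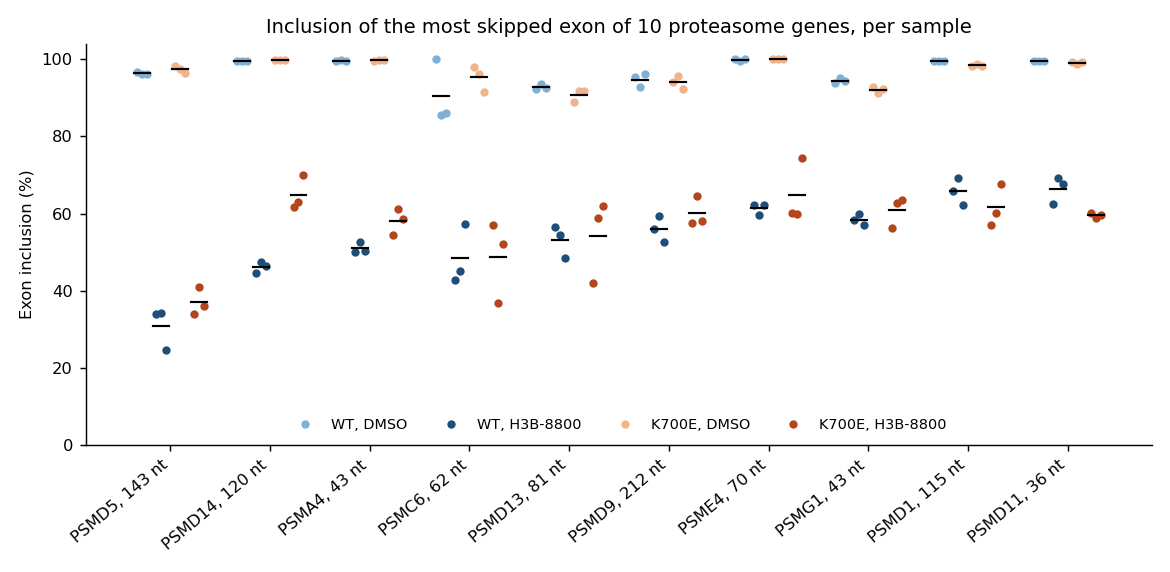
Inclusion level in percent of 10 skipped exons in each of the 12 samples, grouped by genotype and treatment. The exons were picked for their fall in these same samples, and with H3B-8800 every sample lies below all DMSO samples of its genotype. PSMD14 exon 5 lies at 44.7% to 47.3% in treated WT and 61.7% to 70.0% in treated K700E samples.

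The chaperones that assemble the 19S base had 7 of 10 tested exons called in each genotype, beside 40.3% of all exons in WT and 38.5% in K700E cells. Their median change was -38.5 points in WT and -34.1 points in K700E cells, the lowest median of the 8 roles. PSMD5 had 5 of its 7 tested exons called. PSMD5 exon 6 was at 96.8%, 96.2% and 96.2% in WT DMSO samples and at 33.9%, 34.3% and 24.6% with drug, so that most of the remaining spliced transcripts lacked it. In K700E cells it was at 98.2%, 97.6% and 96.5% with DMSO and at 34%, 41% and 36% with drug. The changes were -65.5 points (limma, adjusted p = 3.77e-08) and -60.4 points (limma, adjusted p = 3.85e-08), from 89 to 707 reads. PSMD5 exon 8 (110 nt) fell by 61.2 and 55.7 points, exon 5 by 56.5 and 50.5 points, exon 4 by 46.8 and 52.1 points, and exon 2 by 34.3 and 25.0 points. PSMD9, another chaperone of the base, lost exon 2 (103 nt) by 38.2 and 34.1 points and exon 3 (212 nt) by 38.8 and 34 points, and these neighbours share junctions. Its 12751-nt intron, the longest called, rose by 19.2 and 24.4 points on only 23 to 57 reads. PSMD10 had no called event and no exon with enough reads.

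Activators and inhibitor had 14 of 32 tested exons called in WT and 13 in K700E cells, beside 40.3% and 38.5% of all exons. Of their 44 tested introns 7 and 6 were called, beside 31.9% and 31.6% of all introns. Among the activators, PSME4, which encodes the large cap PA200, had 9 of 19 tested exons called in WT cells. It had 6 of 19 introns called in WT and 5 in K700E cells. PSME4 exon 16 of 47 (70 nt) fell from 99.8% ± 0.289 (SD, n = 3) to 61.4% ± 1.53 in WT cells, and K700E cells went from 100% in all 3 samples to 64.8% ± 8.19. Exon 34, also 70 nt, fell by 35.8 and 39.6 points and exon 6 (64 nt) by 33.6 and 38.9 points. The 91-nt PSME4 intron at chr2:53908419-53908509 was retained at 0.222%, 0% and 0.591% in WT DMSO samples and at 28.5%, 33.0% and 46.0% with drug. Its K700E values were 0.261%, 0% and 0.293% with DMSO and 42.4%, 28.8% and 28.9% with drug. That rise of 35.6 points (limma, adjusted p = 3.03e-07) was the largest of any member intron in WT cells, and it was 33.2 points in K700E cells. PSME3, which encodes the nuclear activator PA28 gamma, had 4 of 7 tested exons called in WT cells, among them a 51-nt exon that fell by 21.7 and 16.9 points and a 55-nt exon that fell by 18.4 and 19.1 points. The inhibitor gene PSMF1 had 1 exon called in WT cells alone, with -11.2 against -8.78 points. PSME1 had no called event.

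The chaperones that assemble the core had 1 called exon of 5 in WT cells and 2 in K700E cells, beside 40.3% and 38.5% of all tested exons. A 43-nt PSMG1 exon, whose ends match no GENCODE v29 exon exactly, fell from 94.5% ± 0.560 (SD, n = 3) to 58.4% ± 1.40 in WT cells, and K700E cells went from 92.1% ± 0.813 to 60.9% ± 4.00. An 819-nt intron of PSMG2, the partner of PSMG1, rose from 3.09% ± 0.786 to 22.6% ± 1.41 in WT cells, and K700E cells went from 3.03% ± 0.191 to 25.9% ± 4.77. PSMG3 and PSMG4 had no called event, and PSMG3 had no exon with enough reads.

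**Figure D3:**
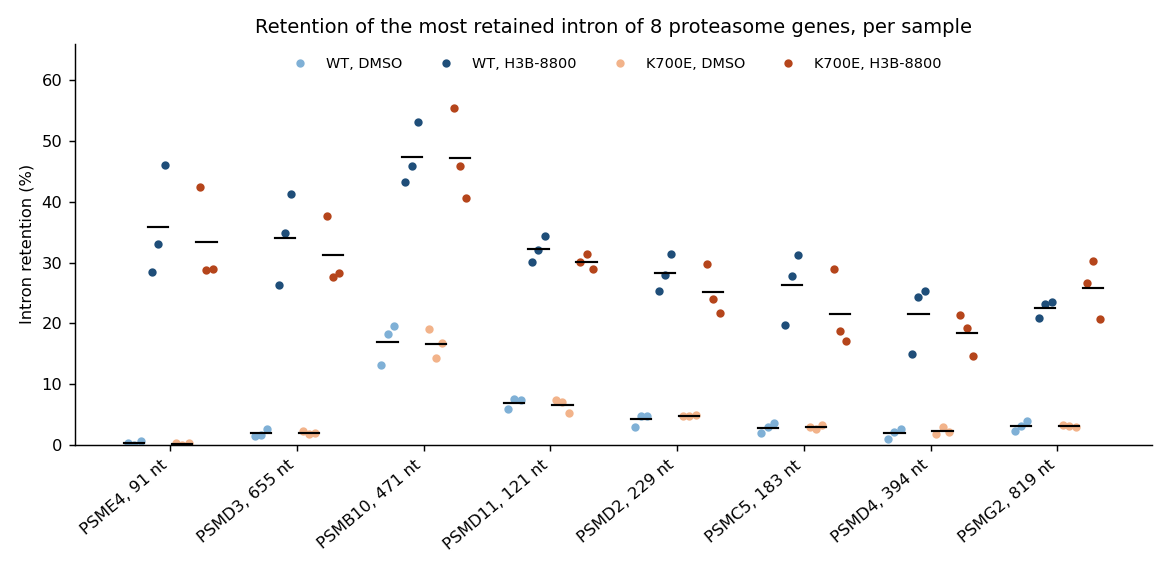
Retention level in percent of the 8 called introns of largest change in WT cells, 1 per gene, in each of the 12 samples, grouped by genotype and treatment. In the PSMB10 intron DMSO samples already lie at 13.1% to 19.6%, while the PSME4 intron starts at or below 0.591% and reaches 28.5% to 46.0%.

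At the other end stood genes whose well-included exons hardly moved. The most skipped exon changed by -0.153 points in PSMC4 (9 exons read), by -1.03 points in PSMB1 (4 exons) and by -1.21 points in PSMB2 (4 exons) in WT cells. PSMD4 and PSMG4 each had 1 such exon, with changes of -0.0900 and 0.0 points. In K700E cells the values were -0.307, -1.32, -1.58, -0.19 and 0.13 points in the same order. The exons of PSMC4, PSMD4 and PSMG4 lay outside the mean levels that were tested, so these values have no test. PSMD4 appears here for its 1 exon and above for its intron. Retention of that intron changed by at least 10 points and inclusion of that exon did not. No exon of PSMD4 could be tested, so exon skipping in the gene as a whole is not known.

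Called and uncalled features differed in length, as a description with no test. The 48 exons called in WT cells had a median length of 79.5 nt (33 to 212), and the uncalled ones 114 nt. Called introns had a median length of 219 nt and uncalled ones 585 nt. Of 45 tested introns of at most 150 nt, 15 were called in WT cells, and of 74 introns of at least 1000 nt, 7 were. At any length 20.1% of the members' introns and 31.9% of all tested introns were called in WT cells. The shares among all introns of these lengths were not counted, so a trait of the members cannot be read from them. Base composition was similar, with a median GC content of 44.4% in called and 45.8% in uncalled coding exons. An intron beside a called exon made up 16 of the 44 called introns, and the share among uncalled introns was not counted.

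Of the 48 exons called in WT cells, 42 were coding exons with a known frame, and 28 of these 42 had a length not divisible by 3. Among the uncalled coding exons 29 of 60 had a length divisible by 3, against 14 of 42 called ones. Leaving out the 28 frame-shifting exons placed a stop codon 5 to 234 nt past the new junction, with a median of 24.5 nt. In 27 of the 28 the stop lay more than 50 nt before the last exon-exon junction, the position from which nonsense-mediated decay is known to act. Decay itself was not measured.

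Alternative splice sites seldom changed. In WT cells 1 of 19 tested 3' sites and 1 of 28 tested 5' sites were called, against 9.24% and 7.06% of all such sites. In K700E cells 1 of 19 and 0 of 28 were called, beside 12.2% and 5.59% of all sites. An unadjusted p under 0.05 (limma) was found there for 7 of the 28 5' sites, beside 2243 of all 7142. The 5' site was in PSMD4 and was used at 2.13%, 0% and 1.01% in WT DMSO samples and at 19.1%, 22.8% and 30.9% with drug. With DMSO it was used at 1.98%, 1.21% and 0% in K700E cells, and with drug at 9.55%, 6.95% and 13.5%. Its rise of 23.2 points was called in WT cells (limma, adjusted p = 8.76e-05), while 8.93 points in K700E cells stayed under the size threshold. The difference between the genotypes was -14.3 points (limma, adjusted p = 0.848), from 46 to 119 reads. The 3' site called in WT cells, chr14:24145741-24145772 in PSME2, rose from 84.0% to 96.2%, but the call rested on single libraries: without WT DMSO replicate 1 the rise was 6.33 points (limma, adjusted p = 0.109).

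The 3' site called in K700E cells was in PSMC6, at chr14:52723949-52724036. It was used at 25.1%, 19.8% and 23.4% in K700E DMSO samples and at 3.00%, 5.74% and 3.61% with drug. In WT cells use was 7.41% ± 1.57 (SD, n = 3) with DMSO and 4.06% ± 2.36 with drug. With DMSO the 2 genotypes did not overlap at this site, a difference of 15.3 points that was not called (limma, adjusted p = 0.0598), and with drug they overlapped. The drug effect was -18.6 points in K700E cells (limma, adjusted p = 1.45e-04) and -3.35 points in WT cells (limma, adjusted p = 0.0643). The difference of -15.3 points was not called on the log odds (limma, adjusted p = 0.569) and was called on percentage points (limma, adjusted p = 0.0172), from 57 to 105 reads.

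Between K700E and WT cells few proteasome events differed. With DMSO 2 of 391 member events were called, beside 0.349% of all events, and both lay in 1 stretch of PSME2, which encodes the beta subunit of the PA28 activator that works with the immunoproteasome. With H3B-8800 2 of 391 were called, beside 0.508% of all events, and they were the same 2 events. The first was a 3' site upstream of the usual start of an exon. The PSME2 gene lies on the minus strand of chromosome 14, its usual exon starts at 24145772, and a nearer and a farther upstream site lie at 24145896 and 24145911, which is 124 and 139 nt before it. The farther site adds 15 bases, in capitals here between the end of the upstream exon and the exon from the nearer site, as a GENCODE v29 transcript (GRCh38) has them at chr14:24145897-24145911 (-).
PSME2 farther site: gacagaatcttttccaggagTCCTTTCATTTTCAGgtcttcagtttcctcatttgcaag

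The farther PSME2 site took 0%, 4.31% and 2.46% of the reads of the upstream sites in WT DMSO samples and 43.0%, 40.6% and 43.0% in K700E DMSO samples. Under drug it took 0.533%, 4.38% and 2.50% in WT and 36.5%, 45.1% and 36.5% in K700E cells. The difference was 39.95 points with DMSO (limma, adjusted p = 0.00545) and 36.9 points with drug (limma, adjusted p = 0.0178). These percentages are shares among the upstream sites only, on 142 to 825 reads, and most PSME2 transcripts used the usual start. Set against the sum of the usual junction and the sites, the farther site took at most 0.201% in the 6 WT libraries and 6.80% to 10.7% in the 6 K700E libraries. The nearer site took 3.70% to 4.37% in WT and 10.5% to 15.5% in K700E libraries. Both upstream sites were therefore used more in each K700E library than in any WT library.

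The second PSME2 event was retention of the 435-nt intron that contains these sites, chr14:24145773-24146207. It stood at 7.43%, 10.4% and 11.6% in WT DMSO samples and at 19.2%, 22.2% and 18.8% in K700E DMSO samples. With drug it was 12.2%, 15.4% and 15.6% in WT and 27.5%, 29.9% and 24.3% in K700E cells. The differences were 10.2 points (limma, adjusted p = 0.0128) and 12.8 points (limma, adjusted p = 0.025). Reads inside the intron could come from transcripts that use the upstream sites, and the part of either was not tested. The 10.2 points became 9.02 without WT DMSO replicate 1 and 9.14 without K700E DMSO replicate 2, under the size threshold. Fitted on the 2 DMSO groups alone, neither PSME2 event was called (limma, adjusted p = 0.0771 for the site and 0.127 for the intron), and with drug 0 to 1 of the 2 events remained called when any 1 library was left out.

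Several differences between the genotypes passed the adjusted p but not the size. A 91-nt exon of PSMD1 at chr2:231166401-231166491, which matches no GENCODE v29 exon, was included at 1.00% ± 0.147 (SD, n = 3) in WT and 5.27% ± 0.430 in K700E cells with DMSO (limma, adjusted p = 7.65e-05). With drug it was included at 1.07% ± 0.140 in WT and 8.28% ± 1.14 in K700E cells (limma, adjusted p = 1.85e-05). The exon lies within the 4548-nt intron of PSMD1 that was retained more with drug in both genotypes.

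Whether the drug acted differently in K700E cells was tested as the difference of its effects, and 0 of 391 member events were called by limma, beside 0.00917% of all events. At an unadjusted p under 0.05 (limma) there were 28 of the 391: 21 of 125 exons, 5 of 219 introns, 1 of 19 3' sites and 1 of 28 5' sites. Among all tested events there were 3969 of 46277 exons, 2521 of 45188 introns, 989 of 10469 3' sites and 403 of 7142 5' sites. PSMD14 exon 5 had the clearest separation on the scale of percentages: the drug effect was 18.5 points smaller in K700E cells. On the log odds that difference was not called (limma, adjusted p = 0.51), and on percentage points it was (limma, adjusted p = 0.00602). Compared under drug alone, K700E samples were 18.8 points above WT samples, without a call in the test on log odds (limma, adjusted p = 0.0972) but with one in 4 of 14 alternative settings. With DMSO the genotypes did not overlap at this exon either, at 99.62% to 99.68% in WT and 99.9% to 99.96% in K700E samples. PSMA4 exon 4, an alpha ring exon, was 6.38 points less affected in K700E cells (limma, adjusted p = 0.43).

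**Figure D4:**
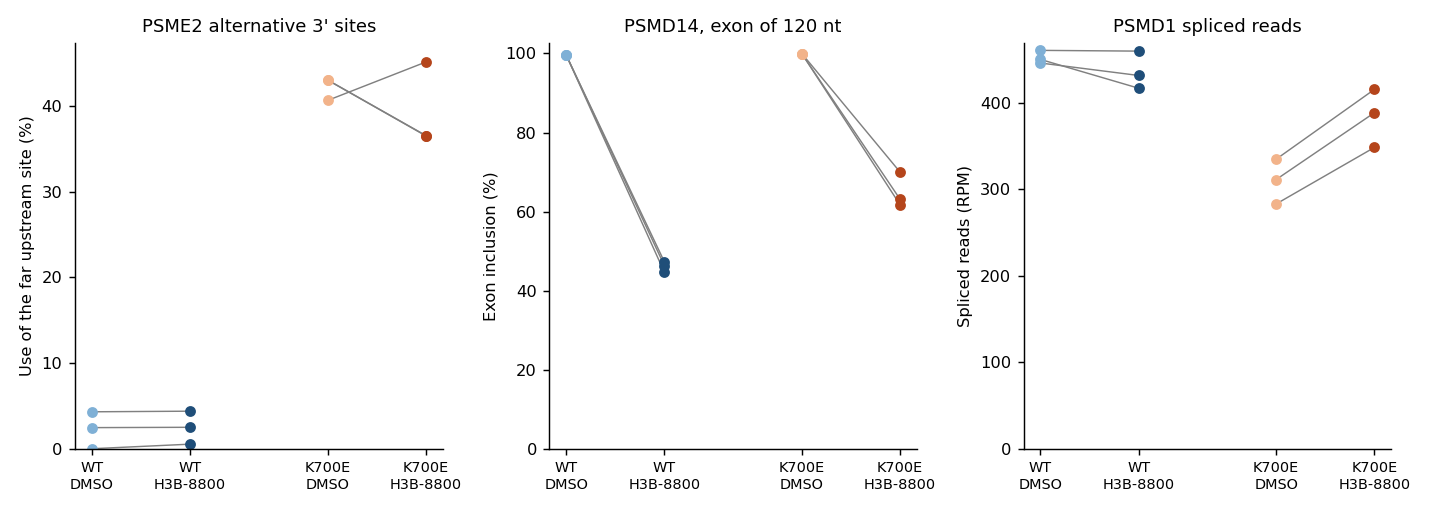
Use of the farther upstream PSME2 site in percent, inclusion of PSMD14 exon 5 in percent and spliced reads of PSMD1 in RPM in the 12 samples, with lines joining DMSO and drug samples of the same culture or clone. The PSME2 site separates the genotypes with and without drug. PSMD14 separates them with drug, and also narrowly with DMSO, at 99.62% to 99.68% in WT and 99.9% to 99.96% in K700E samples. PSMD1 lies at 446 to 460 RPM in WT and 283 to 335 RPM in K700E DMSO samples.

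Spliced reads per gene were counted next, as exon-exon reads over the introns of each gene per 1000000 such reads in the library. They measure properly joined introns and fall both when less RNA is present and when more of it is left unspliced or mis-spliced, and these cannot be told apart here. A gene was called at an adjusted p under 0.05 (limma, over 10182 genes), and 44 members had enough reads. In WT cells 7 of 44 members rose and 20 fell with drug, beside 18.5% of all genes up and 40.8% down. In K700E cells 9 rose and 18 fell, beside 16.2% up and 35.8% down. The median gene itself changed by -0.28 in WT and by -0.22 in K700E cells on the log2 scale, while the median member changed by -0.15 and -0.09, and 26 and 27 of the 44 members lay above the median gene.

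The split between risers and fallers depended on the scaling. Under median-of-ratios scaling, which sets the median gene near 0, 20 members rose and 9 fell in WT cells, beside 29.2% of all genes up and 29.3% down. In K700E cells 17 rose and 9 fell, beside 26.4% up and 26.2% down. Genes with the same call under both scalings are named here. Among all genes 18.5% rose and 29.3% fell under both in WT cells, and 16.2% and 26.2% in K700E cells. In WT cells these were 7 risers (PSMA2, PSMB1, PSMB2, PSMC1, PSMC2, PSMD12 and PSMD14) and 9 fallers (PSMA5, PSMB7, PSMC5, PSMC6, PSMD3, PSMD5, PSME3, PSME4 and PSMG1). In K700E cells PSMD1 and PSMG2 joined the risers, and PSMG3 stood among the 9 fallers where PSMB7 stood in WT cells. With the culture or clone as a block, 15 members rose and 23 fell in WT cells, beside 27.9% of all genes up and 54.5% down, and in K700E cells 16 rose and 22 fell, beside 26.9% and 51.5%. Without either of WT DMSO replicates 2 and 3, or of WT drug replicates 1 and 3, as few as 4 members rose in WT cells.

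PSMD12, a lid subunit gene, had the largest rise in both genotypes. It had 189, 190 and 182 RPM in WT DMSO samples and 322, 308 and 320 RPM with drug, a log2 change of 0.76 ± 0.06 (SE; limma, adjusted p = 2.84e-06). In K700E cells it went from 186, 189 and 213 to 317, 321 and 333 RPM, a log2 change of 0.73 ± 0.06. The other risers of both genotypes moved less. PSMA2, an alpha subunit gene, changed by 0.40 and 0.37, PSMB2, a beta subunit gene, by 0.39 and 0.30, and PSMC2, an ATPase gene, by 0.30 and 0.29 on the log2 scale. PSMD14 had 274, 240 and 245 RPM in WT DMSO samples and 329, 296 and 305 RPM with drug, a log2 change of 0.29 (limma, adjusted p = 0.0379), beside its skipped exon 5. PSMG2 rose in K700E cells by 0.44, and its WT change of 0.19 was not called (limma, adjusted p = 0.0547).

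The falls reached more than a log2 unit. PSMG1, the core chaperone gene, had 117, 122 and 112 RPM in WT DMSO samples and 50.2, 54.1 and 47.9 RPM with drug, a log2 change of -1.21 ± 0.14 (SE; limma, adjusted p = 2.41e-05). Its K700E samples went from 74.3, 99 and 90.8 to 40.01, 56.6 and 54.0 RPM, or -0.82. PSMC6 went from 266, 258 and 255 to 111, 116 and 118 RPM in WT cells, or -1.18 ± 0.10, and changed by -0.88 in K700E cells. In no sample with drug did these genes reach the level of a DMSO sample of the same genotype. PSMD5 went from 52.0, 57.9 and 49.7 to 25.2, 25.9 and 22.4 RPM in WT cells, or -1.12 ± 0.13, and its change was -0.83 when reads that skip an exon were added. PSME3 changed by -1.11 and -0.86, PSMD3 by -1.02 and -0.79, PSME4 by -0.99 and -0.75, PSMC5 by -0.94 and -0.75 and PSMA5 by -0.77 and -0.64.

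**Figure D5:**
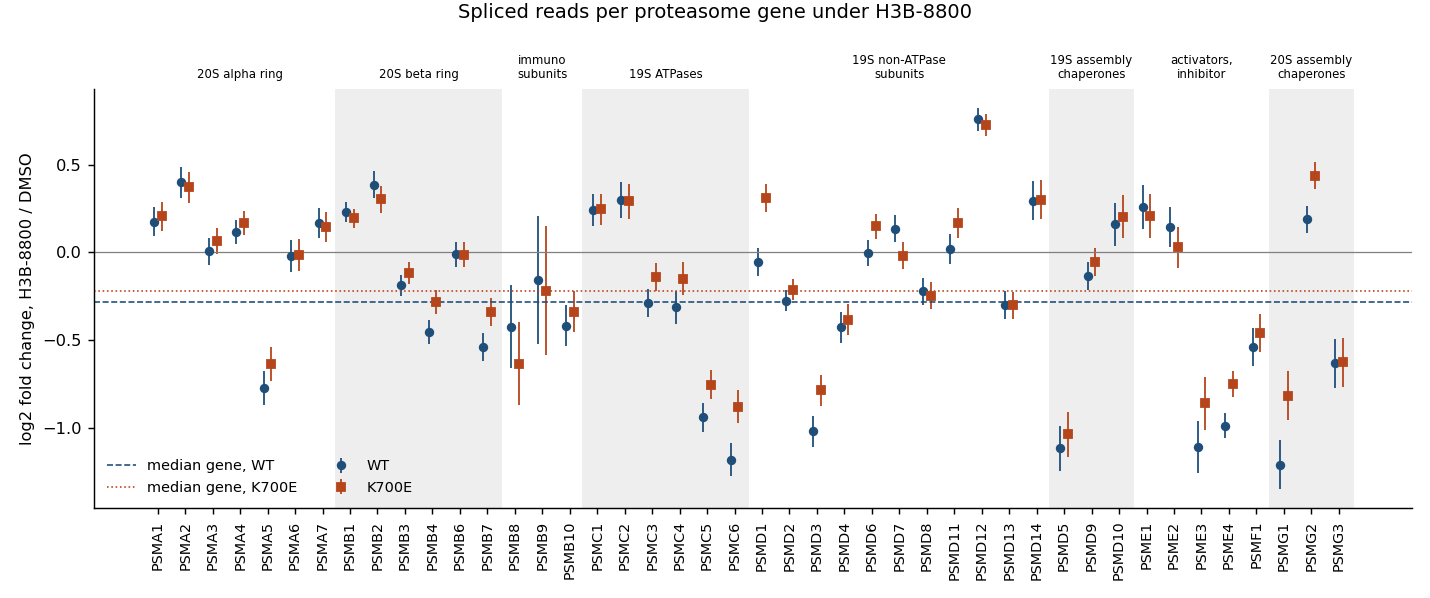
Log2 change of spliced reads (RPM) with H3B-8800 (points, with standard errors) for the 44 tested members, grouped by role, in WT and K700E cells. Lines mark the change of the median gene, -0.28 in WT and -0.22 in K700E cells; PSMD12 lies highest and PSMG1 lowest in WT cells.

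Spliced reads were set beside the splicing calls. Of the 22 members with a called exon or intron in WT cells and tested spliced reads, 8 fell under both scalings and 1 rose, PSMD14, with a median change of -0.42. Of the 22 without a called exon or intron, 1 fell, PSMB7, and 6 rose, with a median of 0.00165. In K700E cells 8 of 22 with a call fell and 3 rose (PSMD1, PSMD14 and PSMG2), and 1 of 22 without a call fell, PSMG3, and 6 rose. Under the RPM scaling alone, 14 of the 22 with a call and 6 of the 22 without fell in WT cells. Over all genes, 34.9% of those with a called exon or intron and 17.5% of those without fell under both scalings in WT cells, and 31.1% and 16.1% in K700E cells. The reads of an intron that is retained are missing from the spliced reads of its gene, so the measures share reads, and no test was made. The unspliced share of PSMB10 junction reads went from 3.41% to 20.5% in WT cells, that of PSMD3 from 0.806% to 13.0% and that of PSMD5 from 2.26% to 11.6%.

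Levels of the standard and the inducible catalytic subunits were compared per intron, in WT DMSO samples, as 3 pairs. PSMB6 had 22.5 ± 0.691 RPM per intron (SD, n = 3), and its inducible partner PSMB9 had 13.3 ± 0.857. PSMB7 stood at 54.8 ± 1.26 and its partner PSMB10 at 10.7 ± 0.377 RPM per intron. In these WT DMSO samples the standard subunit of both pairs had the higher level without overlap. In K700E DMSO samples PSMB6 had 26.5 ± 1.22 and PSMB9 26.2 ± 14.4 RPM per intron (SD, n = 3), and the samples of this pair overlapped, with PSMB9 at 42.8 in clone 41. PSMB8 had 24.8 ± 0.987, and no level can be set beside it because PSMB5 had 1 intron in the table with 11 to 62 reads. Among tested members the levels ran from 5.45 RPM per intron in PSME4 to 91.1 in PSMA2, with a median of 30.6. Clone 41, K700E replicate 1, stood apart in PSMB9, with 214 RPM against 87.5 and 91.1 in the other K700E DMSO samples and 184 against 79.9 and 73.7 with drug. It was also highest in PSMB8, with 218 RPM against 103 and 132 with DMSO. PSMB8 fell in K700E cells with a log2 change of -0.64 (limma, adjusted p = 0.0426). That call was lost under median-of-ratios scaling (limma, adjusted p = 0.128) and with only the 2 groups compared (limma, adjusted p = 0.147). It was also lost without clone 41 in the DMSO group (limma, adjusted p = 0.141), a fit that kept the drug sample of clone 41. With the clone as a block the PSMB8 fall was called (limma, adjusted p = 4.93e-06). Each K700E clone had fewer PSMB8 reads with drug. Clone 41 had 119 against 218 RPM, and the others had 72.3 against 103 and 91.9 against 132 RPM.

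Between the genotypes with DMSO, PSMD1 had the largest called difference of spliced reads among the members. It had 450, 460 and 446 RPM in WT and 311, 283 and 335 RPM in K700E samples, a log2 difference of -0.55 ± 0.08 (SE; limma, adjusted p = 0.00525). In all, 1 of 44 members was lower and 1 higher in K700E cells with DMSO, beside 1.95% of all genes lower and 2.91% higher. The higher one, PSMB4, differed by 0.26 (limma, adjusted p = 0.0491), a call lost under median-of-ratios scaling and without any of the libraries but K700E replicate 2. Without K700E DMSO replicate 1, 2 members were lower. PSMD1 is also the gene with the 91-nt exon that was included more in K700E cells, and whether the 2 are linked was not tested.

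With drug 5 members were higher and 1 was lower in K700E cells, beside 11.1% of all genes higher and 3.09% lower. The higher ones were PSMB4 (0.44), PSMD3 (0.41), PSMB7 (0.33), PSMB3 (0.26) and PSMD2 (0.22 on the log2 scale), and only PSMB4 kept its call under median-of-ratios scaling. PSME2, which carries the upstream sites used more in K700E cells, was lower by a log2 difference of -0.47 (limma, adjusted p = 0.0228). The number of higher members was 3, 1, 9 and 2 without drug library WT 1, WT 3, K700E 2 or K700E 3, and the PSME2 call was lost without WT 1, WT 2 or K700E 3. PSMD1 with drug had 417, 459 and 431 RPM in WT and 388, 348 and 415 RPM in K700E samples, so the genotypes lay closer than with DMSO; only under median-of-ratios scaling was PSMD1 called lower with drug (limma, adjusted p = 0.0393). Its log2 drug effect was -0.05 in WT and 0.31 in K700E cells. Under median-of-ratios scaling the WT effect was 0.22 (limma, adjusted p = 0.0449), so its sign depended on the scaling. The difference of the drug effect was called in 0 of 44 members by limma, beside 0.0491% of all genes, and 4 of the 44 had an unadjusted p under 0.05. With the culture or clone as a block 3 of 44 members were called in either direction, beside 6.05% of all genes: PSMD1 (limma, adjusted p = 0.00398), PSMG1 (0.0106) and PSMC6 (0.0413).

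Partners and regulators of the proteasome were taken from a list of 27 genes, 26 of which could be tested. In WT cells 10 rose and 11 fell, beside 18.5% of all genes up and 40.8% down. In K700E cells 9 rose and 11 fell, beside 16.2% up and 35.8% down. The median log2 changes of the list were -0.03 and -0.04, beside -0.28 and -0.22 for the median gene. Under median-of-ratios scaling 14 rose and 10 fell in WT cells, beside 29.2% of all genes up and 29.3% down. With that scaling 12 rose and 11 fell in K700E cells, beside 26.4% up and 26.2% down. A called splicing event was present in 19 of the 26 in each genotype, near the shares given above for all genes, 75.5% in WT and 75.2% in K700E cells. NFE2L1, the transcription factor known to raise proteasome genes when proteasome activity is short, changed by 0.45 and 0.33, and its relative NFE2L2 by 0.83 and 0.85. AKIRIN2, which carries proteasomes into the nucleus, changed by 0.79 and 0.69, and POMP, the maturation factor of the core, by 0.43 and 0.39. Among fallers, PITHD1, a protein that binds the proteasome, had 47.5, 47.8 and 47.4 RPM in WT DMSO samples and 11.3, 11.2 and 9.98 RPM with drug, a log2 change of -2.14, and -1.81 in K700E cells. KIAA0368, which encodes the ECM29 scaffold, changed by -1.28 and -0.97, and UCHL5, a deubiquitinase of the 19S particle, by -1.23 and -0.83. The list moved in both directions at once, as did the genes of the whole table.

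Some members have processed copies in the genome that resemble their spliced RNA. GENCODE v29 names 32 pseudogenes of 12 members, 13 of them of PSMC1, 4 of PSMA6, 3 of PSMA2 and 3 of PSMD10. Spliced reads of PSMA2, PSMC1 and PSMD12, which rose, and of PSMB7, which fell, are uncertain in this respect, since how reads with several matches were counted is not given in the sources used here.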

How the data were processed

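Poly(A) RNA of 12 MEC1 samples went through 3 technical runs for each library, as the labels' protocols say. The submitters' processing notes name cutadapt 2.4 and build hg38; for the aligner and the event tool, the name is not given in the sources used here. In the deposited table stands, per the file headers, a percent inclusion level per event and sample, not normalized between samples, and beside it a text column in which the authors deposited junction reads and corrected inclusion and exclusion reads. The 36 columns of single runs were not used.

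Events needed 20 reads in all 12 samples, a mean level of 1% to 99%, and, for introns, a deposited balance test at p under 0.05 in at most 6 samples; site 1 of each alternative-site event was left out. The log2 odds (0.5 reads added) entered 1 limma fit (version 3.58.1, R 4.3.3) of the 4 groups with a mean trend, with Benjamini-Hochberg adjustment over 109076 events. Spliced reads per gene were exon-exon reads of intron rows per 1000000, fitted as log2 with 0.5 reads added, for genes with a mean of 50 reads. Fold changes of low genes are understated on this scale. Both fits were tested on simulated data. Corrected reads are not molecules, since no molecular identifiers are described. The labels give no sequencing batch.

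The members, role and partner lists and cell markers were chosen with earlier results of these data known. Named features followed a rule: 1 event per gene and type of largest difference, the 10 exons and 8 introns of largest change, called alternative sites, the 6 largest rises and falls of spliced reads, the 5 genes with the least exon skipping, all events called between genotypes (or the 5 of smallest p) and 3 pairs of catalytic subunits. Further exons and introns of these genes, genes with calls near the threshold and partners were added after their values were seen. Samples of the same culture or clone pair across treatments, per the labels. Deviations of event log odds from the group means correlated by 0.0148 to 0.0695 within pairs, and each sample correlated best with its own pair. The same was not computed for spliced reads. There the block raised the share of all genes called down from 40.8% to 54.5% in WT cells. Alternatives changed the added reads, read minimum, balance filter, scale, weights, size threshold, groups in the fit, replicate block, scaling and left-out libraries. Exon numbers, frames and sequences come from GENCODE v29 (GRCh38).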

Additional observations from a re-analysis of the deposited data

Results flagged for a closer look

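With the culture or clone as a block, the effect of H3B-8800 on spliced reads differed between the genotypes in 3 of 44 members, beside 6.05% of all genes, as K700E minus WT on the log2 scale: PSMD1 by 0.36 (limma, adjusted p = 0.00398), PSMG1 by 0.39 (limma, adjusted p = 0.0106) and PSMC6 by 0.3 (limma, adjusted p = 0.0413). PSMG1 and PSMC6 fell in both genotypes and less in K700E cells. PSMD1 moved in opposite directions per 1000000 spliced reads: all 3 WT samples had less with drug than the DMSO sample of the same culture or clone, and all 3 K700E samples had more. The WT direction depended on the scaling, with a log2 change of -0.05 per 1000000 reads and 0.22 under median-of-ratios scaling (limma, adjusted p = 0.0449). Without the block the PSMD1 difference of 0.36 was not called (limma, adjusted p = 0.721).

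PSMD1 and an alternative 5' site of PSMA6, an alpha subunit gene, were flagged because all WT pairs moved 1 way and all K700E pairs the other. The pair counts therefore follow from the choice and are no test. How often such a pattern arises without a difference was not tested. Use of the PSMA6 site went from 1.35% ± 1.18 (SD, n = 3) with DMSO to 5.02% ± 1.95 with drug in WT cells, higher in 3 of 3 pairs. In K700E cells it went from 4.51% ± 1.09 to 3.14% ± 1.21, lower in 3 of 3 pairs. The difference of -5.03 points was not called (limma, adjusted p = 0.561) and rests on 91 to 211 reads.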

How the results depend on the processing

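Among 16 counts of called members, 164 of 217 alternatives stayed within 1.5 times the value reported and 53 did not; among 90 named events and genes, 1167 of 1254 alternatives kept direction and side of the threshold, 80 lost the call, 4 gained it and 3 changed sign. The cause of each change was not tested. With a size threshold of 20 points, 28 exons and 11 introns were called in WT and 27 exons and 11 introns in K700E cells, and 1 event between the genotypes with DMSO and 1 with drug. On percentage points 4 events differed between the genotypes with drug and 2 in the difference of drug effects, and with weights from read numbers 4 with drug. With only the 2 groups compared, 0 events differed with DMSO, 11 genes rose in WT and 3 in K700E cells, 0 genes were higher with DMSO, and 1 was higher and 0 lower with drug. Under median-of-ratios scaling 20 genes rose and 9 fell in WT cells, 17 rose and 9 fell in K700E cells, 0 were higher and 2 lower in K700E cells with DMSO, and 1 higher and 2 lower with drug. Without a read minimum, or with exon-skipping junctions added, 0 genes were higher with DMSO. With the replicate block, 15 genes rose in WT and 16 in K700E cells and 3 differed in drug effect; the counts of called exons and introns stayed at 48 and 44 in WT and 48 and 43 in K700E cells.

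Leaving out 1 library at a time gave 1 to 2 events between genotypes with DMSO and 0 to 1 with drug. Genes that rose in WT cells numbered 4 to 7, genes higher in K700E cells 0 to 1 with DMSO and 1 to 9 with drug, and genes lower 1 to 2 with DMSO and 0 to 1 with drug. The difference of drug effects in PSMD1 exon 21 ran from -1.67 to 3.28 points and in PSMD1 exon 16 from -1.11 to 4.25 points, with -0.212 points without WT drug replicate 3. PSMA1 exon 2, PSMC6 exon 10, the called alternative sites and the longest PSMD9 intron rest on few reads, and levels near 0% or 100% could not be tested.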
